A study of Mus musculus with 24 samples.

Results

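The contacts of a mutated Oct4 viewpoint on mouse chromosome 11 were compared between embryonic stem cells of the line OCF2ΔYY1, here the YY1 line, and of the line OCF2ΔOCT4/SOX2, here the OctSox line. All 8 libraries of this viewpoint were used, 4 per line, out of 24 in the series. In each line, 2 libraries came from day 0 and 2 from day 3, labelled as biological replicates, and every group shares the strain C57Bl/6 x 129/Sv and passage 7. The groups are thus OctSox day 0, OctSox day 3, YY1 day 0 and YY1 day 3 (2 libraries each). What was done to the cells between the days is not in the labels, nor whether a line is a single clone, so p-values measure only the spread between these libraries. Chromosome 11 holds 31865 HindIII fragments in the files. Leaving out the viewpoint fragment with 1 fragment before and after it kept 31862, and 659 of these had enough counts to be tested.

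In 4C sequencing, chromatin is crosslinked, cut with a restriction enzyme and ligated, so that fragments close to the viewpoint in the nucleus join to it and can be amplified and counted. Contact falls with distance along the chromosome, with local peaks where the chromatin folds back. Oct4, the product of Pou5f1, maintains pluripotency together with its partner SOX2, and the pair often binds DNA side by side at a composite site. YY1 is a zinc-finger protein that binds promoters and enhancers and has been linked to contacts between them. The line names point to the OCT4/SOX2 and YY1 sites as what was mutated, and the labels do not describe the mutations further. They mark this viewpoint as lying in an insertion region, with no cis analysis made there by the submitters. Cell line and mutated allele cannot be told apart here, and a library of the same insertion with both sites intact was not analysed. No gene was assigned to a fragment, because no annotation of the mm9 build was at hand.

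Read depth differed far more between libraries than between lines. Outside the viewpoint, the 4 OctSox libraries held 34764, 6234, 64442 and 3212 counts, and the 4 YY1 libraries 252528, 40785, 26425 and 2820. Libraries are always given in the order day 0 replicates 1 and 2, then day 3 replicates 1 and 2. In each of the 4 groups, replicate 2 was the shallower library. A count of 0 allowed a share of up to 0.00119% in the deepest library and up to 0.106% in the shallowest, from 3 counts of the total. The labels do not say whether PCR duplicates were removed, and these limits and the 95% Wilson intervals cover counting error only. The viewpoint fragment itself took between 1.26% and 9.88% of all counts.

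Shallow libraries showed the fewest fragments, though the order did not follow depth throughout. The OctSox libraries detected 3196, 1309, 4393 and 762 fragments, and the YY1 libraries 10080, 4418, 4637 and 609. YY1 day 3 replicate 1, with 26425 counts, showed more fragments than OctSox day 3 replicate 1 with 64442. At an equal depth of 2820 counts, the expected number was 978 ± 210 for OctSox and 1205 ± 406 for YY1 (SD, n = 4 each). At that depth the day 0 libraries of the YY1 line lay above both of the OctSox line, with 1454 and 1287 against 1070 and 917. At day 3 the lines overlapped, with 1471 and 609 against 1207 and 718. The difference of 227 fragments gave an exact permutation p of 0.389, two-sided, with line labels exchanged within day. This design has 36 arrangements and cannot give a p below 0.0556.

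**Figure D1:**
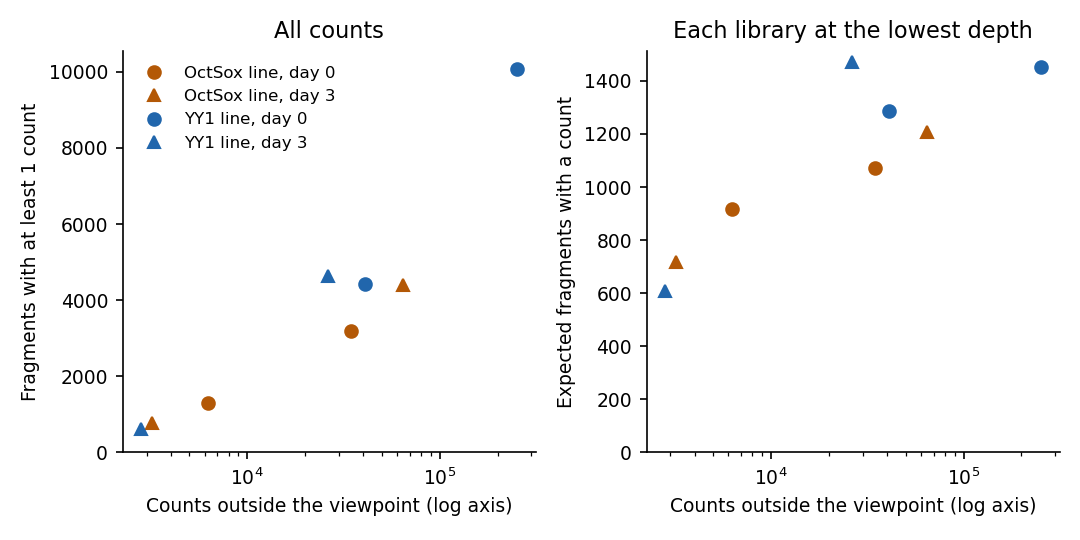
Fragments with at least 1 count (left) and the number expected if each library were drawn down to 2820 counts (right), against counts outside the viewpoint on a log axis; each point is a library, coloured by line and shaped by day. The 2 day 3 libraries with the fewest counts hold 762 and 609 fragments, and at equal depth 718 and 609, the lowest of the 8.

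Close to the viewpoint the same fragments led in both lines, and no fragment there passed the test. The fragments ranked 1 to 4 by mean share were the same in both lines, and 9 of the 10 most contacted were shared. The 10 with the highest mean over both lines all lay within 172 kb of the viewpoint fragment, which runs from 94813216 to 94826180 in mm9. Within 0.1 Mb there were 25 fragments, of which 24 had a count and 20 were tested. The edgeR test called 0 of these 20 at an adjusted p under 0.05, and 0 had an unadjusted p under 0.05 or non-overlapping shares, against a background of 0.455% called over all tested fragments (DESeq2 also called 0.455%, 3 fragments of the 659). The median log2 difference, YY1 over OctSox, of the 20 was -0.15, and that of all 659 was 0.36. The mean share was higher in the YY1 line at 7 of the 25 and lower at 17.

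The fragment from 94808527 to 94811204, at 2.01 kb on the side of lower coordinates, had the highest mean share. It held 1.63% (95% Wilson interval 1.51 to 1.77), 2.6% (2.23 to 3.02), 1.42% (1.33 to 1.51) and 6.38% (5.59 to 7.28) in the OctSox libraries, and 0.847% (0.812 to 0.884), 0.684% (0.609 to 0.769), 4.03% (3.8 to 4.27) and 8.97% (7.97 to 10.1) in the YY1 libraries. Both YY1 day 0 libraries lay below every OctSox library, and YY1 day 3 replicate 2 lay above them all. With 3.01% ± 2.31 against 3.63% ± 3.88 (SD, n = 4 each), the lines differed by less than the spread within either. The log2 difference was -0.14 ± 0.57 (SE; edgeR adjusted p = 0.998). Its sign differs from that of the means, which the shallow day 3 libraries raise, and it turned to 0.31 without the day term. The change of this difference from day 0 to day 3 was 1.84 ± 1.06 (SE; edgeR adjusted p = 0.779).

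On the other side, the neighbouring fragments 94842901 to 94850680 and 94850687 to 94856332 formed the second peak. The farther of them, at 24.5 kb, held 4.0%, 1.65%, 3.85% and 1.77% in the OctSox libraries and 1.89%, 2.13%, 2.4% and 4.26% in the YY1 libraries. High and low libraries occurred in both lines, with means of 2.82% ± 1.28 and 2.67% ± 1.08 (SD, n = 4 each). The nearer, at 16.7 kb, held 2.29% ± 0.991 and 2.0% ± 0.643. Their log2 differences were -0.16 ± 0.54 and -0.06 ± 0.58 (SE; edgeR adjusted p = 0.998 for each). The sign of both depends on the settings tried, which gave values from -0.46 to 0.32 and from -0.47 to 0.50.

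The remaining fragments among the 10 most contacted also overlapped between the lines. At 20.1 kb on the lower side, 94783432 to 94793098 held 1.93% ± 0.705 (OctSox) and 1.97% ± 0.648 (YY1, SD, n = 4 each). At 33.4 kb, 94775552 to 94779846 held 1.56% ± 0.687 and 1.07% ± 0.15. At 75.6 kb on the higher side, 94901753 to 94923772 held 1.56% ± 0.687 and 1.01% ± 0.532. This last fragment had the log2 difference farthest from 0 of the 10, -0.46 ± 0.67 (SE; edgeR adjusted p = 0.998). The fragment 94934604 to 94939913 at 108 kb held 1.41% ± 0.864 and 1.37% ± 0.243, and 94998405 to 95000618 at 172 kb held 0.945% ± 0.322 and 0.919% ± 0.218. Over the 25 fragments within 0.1 Mb, the line means had a Spearman correlation of 0.969, given as a description because both share fragment length and distance. Standard errors were 0.54 or more on the log2 scale at even the most contacted fragments. A difference has to exceed its SE several times over to pass. At 98462582, 8.69 ± 2.59 did not pass (SE; edgeR adjusted p = 0.131). Differences between the lines well above 0.54 could thus also have been missed at the most contacted fragments.

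**Figure D2:**
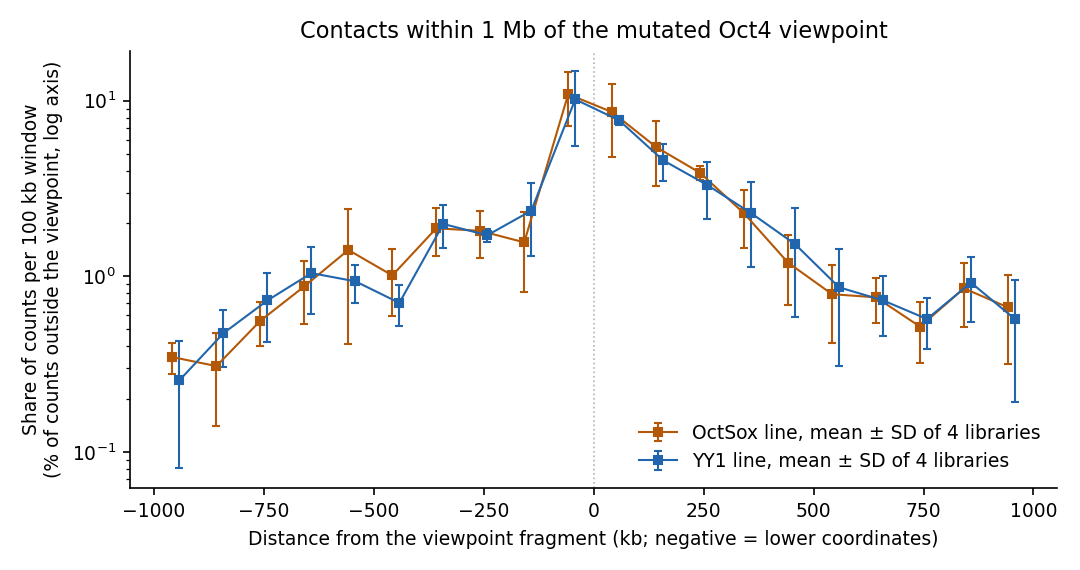
Mean share of counts in each 100 kb window within 1 Mb of the viewpoint fragment (log axis, % of counts outside the viewpoint) against distance in kb, by line; bars are the SD of 4 libraries. The window up to 100 kb on the lower side holds 10.9% and 10.2% in the OctSox and YY1 lines, and the libraries of the lines overlap in all 20 windows.

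In 100 kb windows out to 1 Mb the lines overlapped throughout. On the lower side the first 100 kb held 10.9% ± 3.7 (OctSox) and 10.2% ± 4.66 (YY1), and on the higher side 8.61% ± 3.84 and 7.72% ± 0.482 (SD, n = 4 each). The second window was higher on the higher side in both lines, with 5.44% ± 2.19 and 4.57% ± 1.08, against 1.56% ± 0.749 and 2.36% ± 1.05 on the lower side. Of the counts within 1 Mb, 45.9% ± 8.2 (OctSox) and 47.5% ± 9.56 (YY1) lay on the lower side (SD, n = 4 each; exact permutation p = 0.667, two-sided). The shallow day 3 libraries stood highest in this measure in both lines, with 58.0% and 61.5%. Every other library lay between 39.8% and 45.2%.

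Shares by distance band did not separate the lines. Counts within 0.1 Mb made up 26.7%, 12.3%, 19.7% and 19.2% of the OctSox libraries and 15.2%, 15.1%, 16.6% and 24.7% of the YY1 libraries. The highest and the lowest of these 8 were both OctSox day 0 libraries. The line difference was -1.6 percentage points, while replicates of a group differed by up to 14.4 points. At 0.1 to 1 Mb the means were 26.2% ± 5.66 and 25.6% ± 8.68, at 1 to 5 Mb 10.1% ± 2.16 and 10.9% ± 1.85, at 5 to 20 Mb 21.2% ± 4.03 and 23.2% ± 2.46, and beyond 20 Mb 23.0% ± 6.76 and 22.5% ± 8.31 (OctSox then YY1, SD, n = 4 each). Counting error was at most 1.73 percentage points on either side of a band share in the shallowest library and 0.184 points in the deepest.

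The exact two-sided permutation p-values for the 5 bands were 0.778, 0.778, 0.722, 0.5 and 0.778, from the nearest to the farthest, and each was 0.778 after adjustment over 9 measures. The decay slope, the change of log10 contact per log10 of distance, was -1.06 ± 0.0988 (OctSox) and -1.03 ± 0.0344 (YY1, SD, n = 4 each), with an exact permutation p of 0.667. The 10 most contacted fragments of each library held 20.2% ± 3.42 and 17.8% ± 5.72 of its counts (SD, n = 4 each; exact permutation p = 0.444). On every one of the 9 measures the lines overlapped. The sign of the line difference for 0.1 to 1 Mb, 1 to 5 Mb and beyond 20 Mb turned under at least 1 other way of counting. Leaving out single libraries turned the sign of every measure except the fragments at equal depth. The difference then ran from -5.2 to 2.0 points within 0.1 Mb and from -0.425 to 4.31 at 5 to 20 Mb.

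The same lines were also assayed at the wild-type Oct4 viewpoint on chromosome 17 and at viewpoint 154.9 on chromosome 4. At those viewpoints the YY1 minus OctSox difference within 0.1 Mb was -5.69 and -5.06 percentage points, against -1.6 at the mutated viewpoint. For 5 to 20 Mb it was 3.17 and 1.66 points, against 1.94. The difference between viewpoints had an adjusted p of 0.98 in each of the 5 bands against each of the 2 other viewpoints (exact permutation, 1296 arrangements, two-sided). Line labels were exchanged separately at each viewpoint, so this test assumes no line difference at either. It also takes the libraries of different viewpoints as independent, and the labels do not say whether they share material. A line difference in the bands that is particular to the mutated viewpoint was thus not detected.

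**Figure D3:**
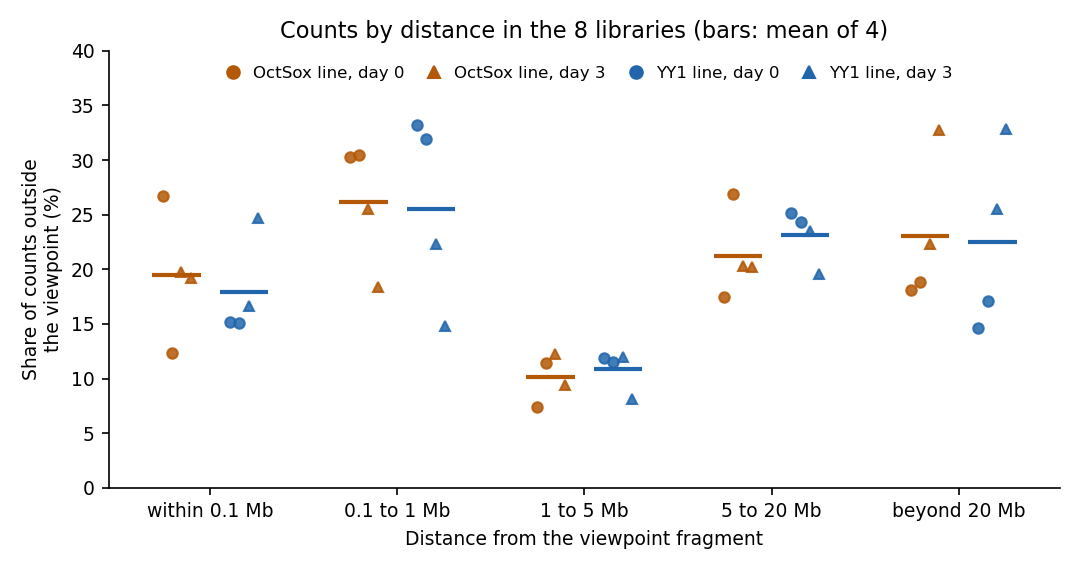
Share of counts outside the viewpoint (%) in 5 bands of distance from the viewpoint fragment; each point is a library, coloured by line and shaped by day, and each bar is the mean of 4 libraries. The points of the lines overlap in every band, and the means beyond 20 Mb are 23.0% and 22.5%.

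Fragment by fragment, the lines differed at 3 of the 659 tested fragments (0.455%), 1 higher in the YY1 line (0.152%) and 2 lower (0.303%), all over 10 Mb from the viewpoint. These are the calls of edgeR's quasi-likelihood test with day as a covariate and Benjamini-Hochberg adjustment. At an unadjusted p under 0.05 there were 42 (6.37%). DESeq2 called 3 as well, of which 2 were higher and 1 lower. The edgeR count was 1 when replicate 2 of OctSox day 0, replicate 2 of OctSox day 3 or both shallow day 3 libraries were left out. The 4 shares of each line did not overlap at 15 fragments (2.28%), with the YY1 line higher at 12 (1.82%) and lower at 3 (0.455%). Of the tested fragments, 29 had 0 counts in all OctSox libraries and 9 had 0 in all YY1 libraries, and the YY1 line was the deeper at day 0. Such fragments could enter the test only through the line that held counts. Setting each of these fragments at its bound in place of its fitted value left the median difference at 0.36. Few values changed and none could cross 0, so this could move the median little and does not measure the effect of the zeros.

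The fragment from 49209359 to 49209845, 487 bp long and 45.6 Mb away on the lower side, was the only one called higher in the YY1 line. The OctSox libraries held 0, 0, 3 and 1 counts, and the 4 YY1 libraries 1124, 374, 354 and 65. As shares outside the viewpoint, these are 0%, 0%, 0.00466% (95% Wilson interval 0.00158 to 0.0137) and 0.0311% (0.0055 to 0.176) against 0.445% (0.42 to 0.472), 0.917%, 1.34% (1.21 to 1.49) and 2.3% (1.81 to 2.93). Every YY1 share lay above every OctSox share, the nearest being 0.445% and 0.0311%, whose interval reaches 0.176%. The fragment ranked 7 by mean share in the YY1 line, among fragments next to the viewpoint, and 1766 in the OctSox line. It alone held between 3.04% and 7.02% of the counts beyond 20 Mb in the YY1 libraries.

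The log2 difference at 49209359, YY1 over OctSox, was 8.28 ± 1.29 (SE; edgeR adjusted p = 1.2e-07) and stayed past the threshold in 17 of 18 other settings. With every fragment that had a count tested, its adjusted p was 0.715. At day 0, where both OctSox libraries were at 0, the YY1 line was at least 69.8-fold higher, a bound from counting error that puts 3 counts in the OctSox group as a floor, and the adjusted p was 0.000812 by edgeR. At day 3 the log2 difference was 7.30 ± 1.75 (SE; edgeR adjusted p = 0.0208). It was the single fragment called within either day, 0.152% of those tested in each. The change in the difference from day 0 to day 3 was -4.21 ± 2.95 (SE; edgeR adjusted p = 0.881).

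The excess lay mainly in that single HindIII fragment. Its direct neighbours held between 0 and 6 counts in any library. The 6 were at the next fragment, from 49209852, in YY1 day 3 replicate 2, a share of 0.213% of this shallowest library. Every other library held 0 there. The 302 other fragments within 500 kb held 0.204%, 0.176%, 0.188% and 0.467% of the OctSox libraries and 0.0887%, 0.0858%, 0.227% and 0.355% of the YY1 libraries. These surroundings overlapped between the lines, with means of 0.259% ± 0.139 and 0.189% ± 0.129 (SD, n = 4 each), and no other fragment among them held over 46 counts in any library.

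The fragment from 80690671 to 80697635, 6965 bp long and 14.1 Mb away on the lower side, was lower in the YY1 line. It held 111, 93, 74 and 34 counts in the OctSox libraries and 5, 2, 6 and 4 in the YY1 libraries. The OctSox shares were 0.319% (0.265 to 0.384), 1.49% (1.22 to 1.82), 0.115% (0.0915 to 0.144) and 1.06% (0.758 to 1.48), and the YY1 shares 0.00198% (0.000846 to 0.00464), 0.0049% (0.00134 to 0.0179), 0.0227% (0.0104 to 0.0495) and 0.142% (0.0552 to 0.364), with 95% Wilson intervals. The lines were separate at day 0. At day 3 they overlapped, since YY1 replicate 2, from 4 counts, lay above OctSox replicate 1. The log2 difference was -5.25 ± 1.38 (SE; edgeR adjusted p = 0.0321), and DESeq2 gave an adjusted p of 0.000904.

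This call rests on several libraries. Leaving out replicate 2 of OctSox day 0 or of OctSox day 3 gave an adjusted p by edgeR of 0.191 or 0.171. Leaving out YY1 day 0 replicate 1, its replicate 2 or YY1 day 3 replicate 1 gave 0.845, 0.714 or 0.124. It was 0.439 without both shallow day 3 libraries and 0.808 with no filter on low counts. Around this fragment the mean share was also smaller in the YY1 line, a description that was not tested. The 261 other fragments within 500 kb held 0.391%, 0.979%, 0.358% and 0.747% of the OctSox libraries and 0.356%, 0.25%, 0.291% and 0.248% of the YY1 libraries. The shares did not overlap, by a margin of 0.358% against 0.356%, and the means were 0.619% ± 0.297 and 0.287% ± 0.0507 (SD, n = 4 each). The 2 highest OctSox shares were those of replicate 2 at each day, from 61 and 24 counts. These surroundings were chosen through a called fragment. Shares did not overlap in 2.9% of all 100 kb windows and 4.2% of all 1 Mb windows. The fragment 80690671 itself ranked 14 by mean share in the OctSox line and 314 in the YY1 line.

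The fragment from 5089052 to 5089727, 676 bp long and 89.7 Mb away, held counts in OctSox libraries alone, and in only 2 of those. It entered the test through these 2 libraries. It had 25 counts in OctSox day 0 replicate 2 and 59 in OctSox day 3 replicate 2, shares of 0.401% (95% Wilson interval 0.272 to 0.591) and 1.84% (1.43 to 2.36). The other 2 OctSox libraries and the 4 YY1 libraries were at 0. The YY1 line was at least 83.1-fold lower, a bound of the same kind from counts pooled over the 4 libraries of each line. It does not cover differences between replicates. The adjusted p was 8.4e-05 by edgeR and 0.404 by DESeq2. Without OctSox day 0 replicate 2 this p was 0.155 by edgeR, and without OctSox day 3 replicate 2 it was 0.256. Without both shallow day 3 libraries it was 0.732, and with no filter on low counts 0.2. Its direct neighbours held 0 counts in all 8 libraries.

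**Figure D4:**
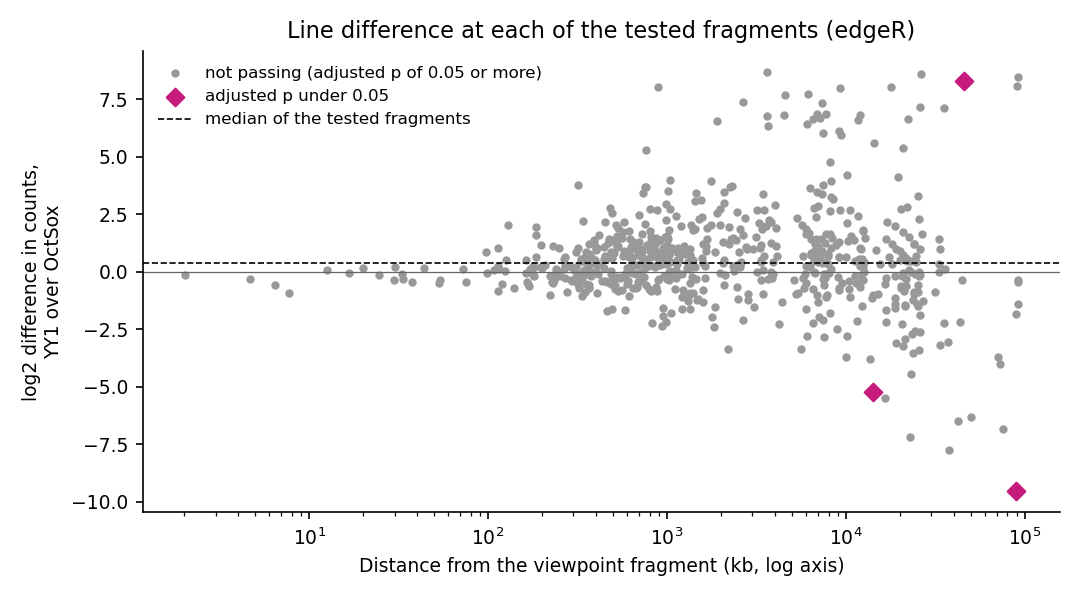
Log2 difference in counts, YY1 over OctSox, of the 659 tested fragments (edgeR) against distance from the viewpoint fragment in kb on a log axis; diamonds passed an adjusted p under 0.05, and the dashed line is the median, 0.36. The 20 fragments within 0.1 Mb lie between -0.91 and 0.88, and the 3 that passed lie at 14.1, 45.6 and 89.7 Mb; values of 29 and 9 fragments with 0 counts in a line are fitted and depend on the prior count.

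The 6 fragments next in order of p did not pass, and 5 of them were seen in the YY1 line alone. These 5 entered the test through YY1 libraries only. At 98462582 to 98463240, 3.64 Mb away on the higher side, the YY1 libraries held 98, 19, 1 and 17 counts and the OctSox libraries 0. All 4 YY1 shares lay above the measured 0, though day 3 replicate 1 did so by 1 count. A 0 allowed up to 0.0481% in OctSox day 0 replicate 2 and 0.0934% in OctSox day 3 replicate 2. The YY1 shares were 0.0388%, 0.0466%, 0.00378% and 0.603%, so only the last lay above both limits. With counts pooled over the 4 libraries of each line, the bound from counting error was 15.2-fold higher in the YY1 line. Pooled within a day, it was 5.45-fold (day 0) and 13.9-fold (day 3). The deepest libraries weigh most in such pooled bounds. The adjusted p of the fragment was 0.131 by edgeR. Scaled by DESeq2 size factors or by total counts, the fragment passed (adjusted p = 0.0469 and 0.0271). At 121053139 to 121056506, 26.2 Mb away on the higher side, the YY1 counts were 60, 7, 58 and 4, with an adjusted p of 0.172 by edgeR. The pooled bound was 14.5-fold, or 3.12-fold within day 0 and 47.8-fold within day 3. DESeq2 gave this fragment an adjusted p of 0.0372, its second call higher in the YY1 line.

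Closer in, 93925264 to 93927542 lies 0.886 Mb away on the lower side and held 216, 15, 1 and 7 counts in the YY1 libraries. The pooled bound was 26.8-fold, or 10.8-fold within day 0 and 6.17-fold within day 3. The adjusted p was 0.21 by edgeR. The fragment 104096098 to 104098205, 9.27 Mb away, held 98, 1, 17 and 7, and 4253189 to 4263559, 90.5 Mb away, held 0, 15, 5 and 12. Both had an adjusted p of 0.259 by edgeR, with pooled bounds of 13.8-fold and 3.59-fold. Within day 3 the bounds were 18.5-fold and 13.1-fold. Within day 0 the first was 4.61-fold, and the value for the second, 0.699, lay under 1 and gives no bound. The last of the 6, 117655659 to 117657997, held 7 counts in OctSox day 0 replicate 2 and 35 in OctSox day 3 replicate 1 and none elsewhere, with an adjusted p of 0.278. Of the 12 fragments at which every YY1 share lay above every OctSox share, 8 had 0 counts in all OctSox libraries. These 8 could pass the filter on counts only through YY1 libraries, so their separation is shaped by that filter. That separation is of measured shares and does not allow for what a 0 in a shallow OctSox library could hide.

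**Figure D5:**
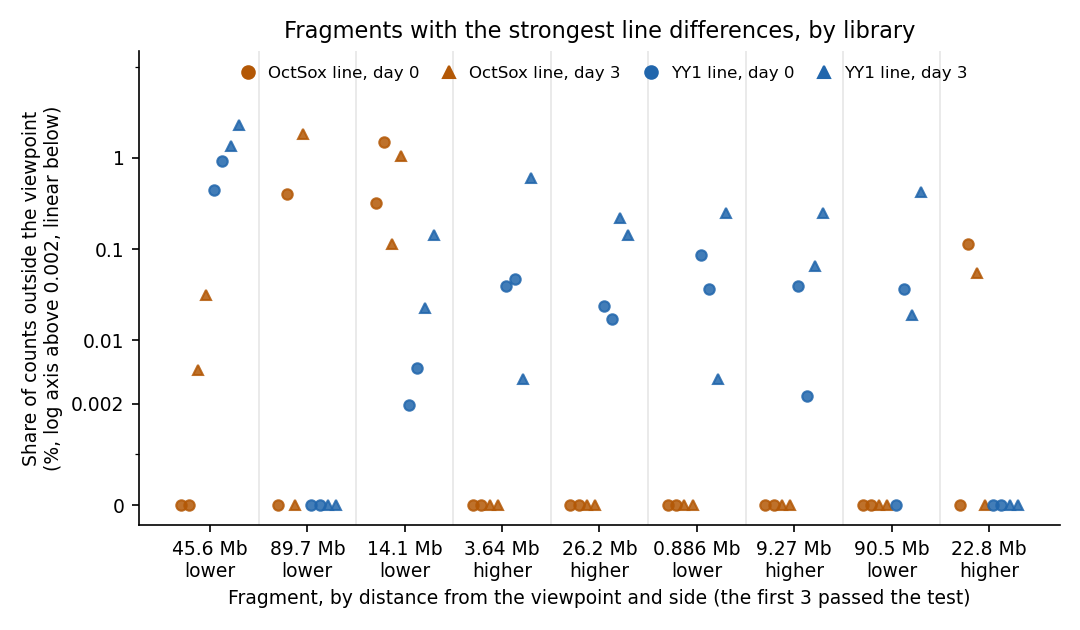
Share of counts outside the viewpoint (%, log axis above 0.002 and linear below) in each library at the 3 fragments that passed the test and the 6 with the next smallest p, named by distance in Mb and side; colour is line and shape is day. At 45.6 Mb the YY1 points run from 0.445% to 2.3%, and at 89.7 Mb the only points above 0 are the 2 OctSox libraries at 0.401% and 1.84%.

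The 3 fragments at which every YY1 share lay below every OctSox share were all within 1 Mb, and none was near the threshold. They were 94328327 to 94351685 at 462 kb on the lower side, and 95175289 to 95180211 at 349 kb and 95776908 to 95780545 at 951 kb on the higher side. The first held 85, 28, 153 and 11 counts in the OctSox libraries and 346, 29, 18 and 1 in the YY1 libraries. Its counts were higher in YY1 day 0 replicate 1, the deepest library, and its share was not. At 95175289 and 95776908, YY1 day 3 replicate 2 held 0 counts, which allows a share of up to 0.106%. At 95776908 the OctSox libraries held 32, 8, 151 and 2 counts, and that limit exceeds the share of the library with 2. In the order named, the log2 differences were -1.70 ± 1.19, -0.89 ± 1.25 and -1.93 ± 1.49 (SE; edgeR adjusted p = 0.998 for each).

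By distance, the median log2 difference was -0.15 for the 20 fragments tested within 0.1 Mb, 0.31 for 241 at 0.1 to 1 Mb, 0.69 for 156 at 1 to 5 Mb and 0.63 for 160 at 5 to 20 Mb. Beyond 20 Mb it was -0.36 for 82. Only 1 fragment within 5 to 20 Mb (lower in the YY1 line) and 2 beyond 20 Mb (1 higher, 1 lower) passed. These medians cover only fragments that passed the filter on counts. Its main cut is on counts scaled by library size, so a shallow library needs fewer counts to meet it. The medians shift with the scaling. The median over all tested fragments was 0.36 with TMM factors, 0.33 with DESeq2 size factors and 0.19 with total counts. Single libraries moved it further, to -0.026 without YY1 day 3 replicate 1 and 0.76 without OctSox day 3 replicate 1, and the replicate block gave 0.66.

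Within a day, edgeR called 0 fragments lower in the YY1 line at either day. This depends on the scaling: with DESeq2 size factors or with total counts, 2 were lower at day 0 and 1 at day 3, beside 1 higher each. At an unadjusted p under 0.05, 35 fragments differed at day 0 (5.31%) and 25 at day 3 (3.79%). Neither edgeR nor DESeq2 called an interaction of line and day (0 each), and 36 fragments had an unadjusted p under 0.05 there (5.46%).

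Single libraries also changed the calls within a day. With OctSox day 0 replicate 1 left out, the call at day 0 was lost and 2 fragments were called lower in the YY1 line, with 0 higher. Leaving out OctSox day 3 replicate 1 or either YY1 day 3 library gave 1 higher and 2 lower, leaving out OctSox day 3 replicate 2 gave 1 higher and 1 lower, and leaving out YY1 day 0 replicate 2 gave 0. At day 3 the count was 0 without OctSox day 3 replicate 1 or either YY1 day 0 library.

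Summed over 100 kb windows, 3 of 689 differed (0.435%), 1 higher (0.145%) and 2 lower (0.29%) in the YY1 line. The window from 49200001 to 49300000 held 14, 0, 5 and 2 counts in the OctSox libraries and 1127, 375, 356 and 71 in the YY1 libraries, nearly all in the fragment 49209359. Its log2 difference was 5.27 ± 1.00 (SE; edgeR adjusted p = 9.9e-05). The window from 80600001 to 80700000 held 133, 95, 107 and 36 counts against 92, 7, 8 and 4, a log2 difference of -4.17 ± 1.02 (SE; edgeR adjusted p = 0.00944). The adjusted p of this window was 0.214 without OctSox day 0 replicate 2, 0.376 and 0.583 without YY1 day 0 replicates 1 and 2, and 0.23 without YY1 day 3 replicate 1.

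The third window, 3500001 to 3600000, near the start of the chromosome, showed a single library. It held 11, 1, 2319 and 3 counts in the OctSox libraries and 19, 0, 18 and 0 in the YY1 libraries, and 2314 of these were in the fragment 3544248 to 3546901 of OctSox day 3 replicate 1. Its log2 difference of -4.28 ± 1.00 (SE; edgeR adjusted p = 0.00723) became -1.87 ± 1.56 without that library (adjusted p = 0.99). It also missed the threshold without YY1 day 0 replicate 2 (0.196) and without YY1 day 3 replicate 1 (0.326). The lines overlapped in this window. At an unadjusted p under 0.05 there were 22 windows (3.19%). Without the 3 fragments called above, an alternative chosen after seeing the data, only this window was called. The count of windows was 1 without YY1 day 0 replicate 2 and 1 without YY1 day 3 replicate 1.

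Over 1 Mb windows, 1 of 119 was called (0.84%), from 49000001 to 50000000, with 79, 11, 183 and 18 counts against 1424, 436, 431 and 78. Its log2 difference was 2.23 ± 0.40 (SE; edgeR adjusted p = 0.00591). Without the 3 called fragments 0 windows were called. The count was also 0 without OctSox day 0 replicate 2, OctSox day 3 replicate 1 or YY1 day 0 replicate 2, and 4 without YY1 day 3 replicate 2. At an unadjusted p under 0.05 there were 7 (5.88%). Shares did not overlap in 5 of the 119 (4.2%) and in 20 of the 689 smaller windows (2.9%).

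Strong far contacts were mostly seen in a single library. Over 1 Mb from the viewpoint, 191 fragments held at least 0.2% of a library, and 181 of them did so in 1 library only. The OctSox libraries had 1, 45, 5 and 66 such fragments and the YY1 libraries 1, 3, 3 and 81, so that the 3 libraries with the fewest counts had the most. Of the 10 fragments above 0.2% in at least 2 libraries, 5 were above it in both lines, 4 in OctSox libraries alone and 1, 49209359, in YY1 libraries alone. Another of them, 96039345 to 96042983 at 1.21 Mb on the higher side, held 0%, 0.0962%, 0.135% and 0.436% in the OctSox libraries and 0.0744%, 0.0637%, 0.193% and 0.638% in the YY1 libraries. The shallow day 3 library was the highest of its line in both. It was chosen after its values were seen.

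The libraries were also set against each other over the 659 fragments, taken as shares. The Spearman correlation had a median of 0.253 over 12 pairs within a line (0.118 to 0.716) and 0.31 over 16 pairs between lines (0.147 to 0.558). The highest, 0.716, joined the YY1 day 0 replicates. Pairs that include YY1 day 3 replicate 2, the shallowest library, lay between 0.118 and 0.234. These values describe the libraries, share the decay with distance and move with depth.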

How the data were processed

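Paired-end 4C libraries were made from crosslinked, HindIII-digested and ligated chromatin and sequenced on a MiSeq, per the labels' protocols. Reads were aligned with Bowtie to mm9, per the submitters' processing notes. How reads were counted and filtered is not stated there. The files the authors deposited hold raw counts for each HindIII fragment, which were placed by order on their list of chromosome 11 fragments. Reads without molecular identifiers are not independent molecules. Coordinates are mm9, 1-based.

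No label gives the viewpoint position, so it was taken as the fragment with the highest pooled count, and this fragment and its neighbours were left out of totals, shares and tests. It did not lead in every library. Replicate 2 of OctSox day 0 and of OctSox day 3 and both YY1 day 3 libraries held 95, 171, 339 and 108 counts there. At 94808527 they held 162, 205, 1064 and 253. YY1 day 0 replicate 2 held 991 there and 1094 at 94842901. Distances run from fragment edge to fragment edge.

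The quasi-likelihood test of edgeR 4.0.16 (R 4.3.3) was run with TMM factors on fragments that filterByExpr kept (4 line and day groups, minimum count 10), and p-values were adjusted over all of them by Benjamini-Hochberg, with a threshold of 0.05. The line comparison had day as a covariate. Within-day values and the interaction came from a 4-group model over all 8 libraries. The SE is the absolute log2 difference over the square root of F, so it follows from the test. DESeq2 1.42.0 was an alternative, as were other scalings, filters, exclusions at the viewpoint, a fit without day, a replicate block and leaving out libraries. Shares, permutations and figures used scipy 1.17.1, pandas 2.3.3, matplotlib 3.10.9 and numpy 2.4.6 under Python 3.11.15. The tests were also tried on simulated data, for edgeR with means and dispersions fitted to these libraries.

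Named fragments were the called ones whose shares did not overlap (up to 10 per direction), the 6 with the smallest p that did not pass, the 10 most contacted and up to 5 called per direction in the other contrasts and windows. The fragments 80690671 and 5089052, called but overlapping, and those with shares lower in every YY1 library were named after their values were seen. Comparisons, lists and rules were chosen with earlier results of these data known. The share is always of counts outside the viewpoint unless all counts are named.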

Additional observations from a re-analysis of the deposited data

Results flagged for a closer look

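Of 56 sets of 4 libraries examined, 6 held a library far from the other 3 of its line, where chance gives about 1 set in 20. All 6 were day 3 replicate 2, the shallow library, of the OctSox or the YY1 line, so they are not independent of each other. In the YY1 line, the share within 0.1 Mb was 24.7% there against 15.1% to 16.6% in the other 3, and the share at 1 to 5 Mb was 8.09% against 11.5% to 12.0%. The OctSox share of the fragment 49209359 was 0.0311%, from 1 count. In the YY1 line the share of 80690671 was 0.142%, from 4 counts, that of 98462582 was 0.603%, from 17 counts, and that of 4253189 was 0.426%, from 12 counts. With 2820 and 3212 counts in these libraries, 1 count is a larger share than in any other library, and the part of depth in these values was not tested.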

How the results depend on the processing

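The 3 called fragments fell to 0 calls when every fragment with a count was tested and to 1 without both shallow day 3 libraries. At day 0, where 1 fragment was called, the count was 2 by DESeq2, 3 with DESeq2 size factors or total counts, 0 with no filter, 2 with at least 10 counts in 4 libraries, 2 with the replicate number as a block and 0 without the shallow libraries. At day 3 it was 2 with either of the other scalings and 0 with no filter, with nothing left out at the viewpoint or without the shallow libraries. Of the windows, DESeq2 called 2 of 1 Mb and the fit without the shallow libraries 3, and without the 3 called fragments 1 of 100 kb and 0 of 1 Mb stayed past the threshold. The median log2 difference of the tested fragments ranged from -0.026 to 0.76 over the libraries left out. The causes were not tested.

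Band differences turned sign for 0.1 to 1 Mb (0.408 points with nothing left out), for 1 to 5 Mb (-0.458 points with fragments in place of counts) and beyond 20 Mb (0.264 points with nothing left out, 1.02 with fragments in place of counts, 0.327 without the shallow libraries). Among the most contacted fragments, the log2 difference turned with no filter at 94808527 (0.34), 94850687 (0.048), 94842901 (0.18) and 94775552 (0.051), with the replicate block at 94850687 (0.12) and 94842901 (0.10), without the shallow libraries at 94842901 (0.066) and 94934604 (-0.30), without the day term at 94808527 (0.31) and 94934604 (-0.022) and with total counts at 94998405 (-0.057).

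Leaving out each library in turn gave 1 to 3 calls per fragment, 0 to 3 at day 0, 0 to 1 at day 3, 0 for the interaction, 1 to 4 windows of 100 kb and 0 to 4 of 1 Mb. The line differences ranged from -5.2 to 2.0 points within 0.1 Mb, -2.47 to 1.28 at 0.1 to 1 Mb, -0.263 to 1.73 at 1 to 5 Mb, -0.425 to 4.31 at 5 to 20 Mb, -3.11 to 2.15 beyond 20 Mb and -2.97 to 6.13 for the lower side. They ranged from -0.0209 to 0.0945 for the slope, 11.5 to 442 fragments at equal depth and -4.93 to 0.148 points for the 10 most contacted. Of the named fragments, 49209359 ranged from 7.73 to 8.89 on the log2 scale, 80690671 from -6.23 to -4.25, 94808527 from -0.57 to 0.18, 94850687 from -0.41 to 0.32, 94842901 from -0.47 to 0.50, 94783432 from -0.028 to 0.40, 94934604 from -0.26 to 0.54, 94775552 from -0.59 to 0.048, 94759688 from -0.20 to 0.51, 94901753 from -1.20 to 0.10, 94806773 from -0.66 to 0.73 and 94998405 from -0.084 to 0.40.

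Replicate numbers shared no label of a batch and were not taken as pairs in the main fit. The deviations of same-numbered libraries correlated between 0.0847 and 0.248 over the 6 pairs of groups, all positive. Replicate 2 was also the shallower library in every group, and the part of depth in these correlations was not tested. With the block, the counts were 3 per fragment, 2 at day 0, 1 at day 3, 0 for the interaction, 3 windows of 100 kb and 1 of 1 Mb. At day 3, each line has a library with at most 3212 counts outside the viewpoint.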
